A study of Mus musculus with 4 samples.

Results

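The 6 genes described here are the secreted effector molecules Ccl5, Ccl3, Ccl4, Xcl1, Ifng and Tnf, taken by their symbols from the 27998 genes of the deposited count tables. The counts are unique molecular identifiers (UMIs), each standing for 1 captured transcript, from droplet-based single-cell RNA sequencing of CD3-enriched blood cells of C57BL/6 mice. All 4 mice carried a subcutaneous MC-38 tumor, a syngeneic colorectal cancer line, entered the study at 6 to 8 weeks of age and were bled on day 18 after tumor challenge. Each mouse gave 1 library: Untreated, PDL1 (blocking anti-PD-L1 antibody on days 10, 13 and 17), OX40 and PDOX (both regimens). The label of the OX40 library names OX40 alone, and the study's regimen for that group is an agonistic anti-OX40 antibody with the immunostimulatory oligonucleotide CpG on day 7. With 1 mouse and 1 library in a group, mouse, library and treatment cannot be told apart, and no difference between treatments was tested. Levels are UMIs of the gene per 10000 UMIs of the class, and intervals of levels, shares and ratios are exact 95% intervals that cover counting error only.

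Ccl5 (RANTES), Ccl3 (MIP-1α) and Ccl4 (MIP-1β) are chemokines that attract T cells, monocytes and other leukocytes. Xcl1 (lymphotactin) attracts cross-presenting dendritic cells, which carry XCR1. Ifng encodes interferon gamma, the cytokine of type 1 immunity that activates macrophages and raises antigen presentation, and Tnf encodes an inflammatory cytokine that acts through the receptors TNFR1 and TNFR2. Cytotoxic T cells and natural killer (NK) cells are known to make these molecules after activation, and memory CD8 T cells and NK cells store Ccl5 transcript at rest.

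The libraries held between 2392650 and 4969885 UMIs, and 5299 of 5434 deposited cells had at least 200 expressed genes. The median kept cell had between 1452 and 1637.5 UMIs without the genes of mitochondria, ribosomes and hemoglobin. A Cd3d, Cd3e or Cd3g UMI was found in between 89.0% and 95.3% of kept cells, as the label of CD3-enriched cells implies. Cells were put in classes by UMIs of lineage genes. This gave 2085 CD8 T cells (Cd8a or Cd8b1, no Cd4), 860 CD4 T cells, 1800 T cells with neither or both, 64 NK cells, 80 monocytes, 131 B cells, 42 neutrophils and 9 basophils. Another 223 cells met no gate, and 5 met more than 1 and were left out, and no other step removed doublets. Pairs of libraries shared between 1 and 6 cell barcodes. T cells were split further into a naive gate (Ccr7 and no S100a4) and an effector gate (S100a4 and no Ccr7). Among markers that no gate used, Gzmb was found in 49.6% of effector-gate and 0.931% of naive-gate CD8 T cells, and Lef1 in 27.0% and 72.6%. Gzma and Nkg7 were found in all 64 NK cells, Lyz2 in 98.8% of monocytes and Cd74 in all B cells.

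The 6 genes were found in very different numbers of cells. Ccl5 had 96146 UMIs in 35.5% of kept cells, and 195 cells held the upper 50% of them. Ccl4 had 1442 UMIs in 5.94% of cells, Ccl3 1054 in 3.76%, Ifng 291 in 3.94%, Xcl1 191 in 2.04% and Tnf 148 in 1.36%. The upper 50% of the UMIs lay in 17 cells for Ccl4, in 13 for Ccl3, in 64 for Ifng, in 25 for Xcl1 and in 8 for Tnf. CD8 T cells made up 39.3% of the cells and held 62.7% of Ccl5, 60.7% of Xcl1 and 49.8% of Ifng UMIs. They held 37.6% of Ccl4, 21.5% of Ccl3 and 14.9% of Tnf UMIs.

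**Figure D1:**
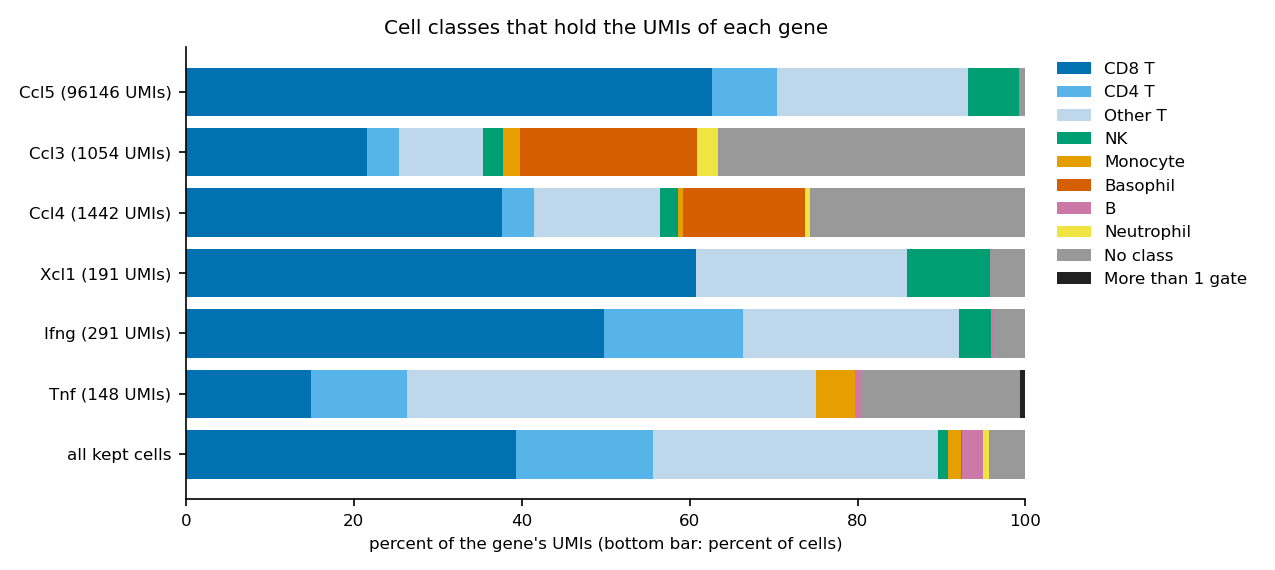
Share of each gene's UMIs held by each cell class, over the 4 libraries, with the share of cells in the bottom bar. CD8 T cells held 62.7% of Ccl5 UMIs, whereas basophils and cells without a class together held most of the Ccl3 UMIs, of which 620 of 1054 came from PDOX.

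Ccl5, the chemokine stored by memory T cells, had the most UMIs of the 6 genes. In CD8 T cells its level was 25.5 per 10000 in the Untreated, 62.3 in the PDL1, 212 in the OX40 and 320 in the PDOX library. The 4 intervals did not overlap, from 24.1 to 27.0 in the lowest to 316 to 324 in the highest library. Against the Untreated library, the level was 2.44-fold (2.30 to 2.59) higher in PDL1, 8.32-fold (7.87 to 8.81) in OX40 and 12.5-fold (11.9 to 13.3) in PDOX. Of the genes with at least 50 UMIs in the pair of libraries, 2.04%, 2.15% and 3.41% were 2-fold or more higher in the same 3 comparisons. The share of CD8 T cells with a Ccl5 UMI was 20.8% in Untreated, 29.3% in PDL1, 56% in OX40 and 63.6% in PDOX. With cells thinned to 750 UMIs, which kept the 289, 608, 619 and 407 cells with that depth, the shares were 18%, 21.7%, 47.5% and 59.5%. As a class taken to hold little Ccl5 of its own, B cells had a Ccl5 UMI in 12.2% of cells (6.61% after thinning) and a level of 0.904. The median depth was 1217 UMIs in B cells and 1687 in CD8 T cells.

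The CD8 T cells of the 4 libraries also differed in their makeup. The effector gate took 1.89% (6 cells), 6.19% (40 cells), 15.1% (101 cells) and 29.1% (131 cells) of CD8 T cells in Untreated, PDL1, OX40 and PDOX. Inside the effector gate, the Ccl5 level was 284, 283, 741 and 554 in the same order. The Untreated value rests on 6 cells, of which 1 held 190 of 333 UMIs, and the median depth of these cells was 1916.5, 3226, 2019 and 2000 UMIs. Inside the naive gate, the level was 9.25, 9.92, 38.9 and 28.4. The order of OX40 and PDOX was thus not the one in all CD8 T cells. PDOX over OX40 was 1.51-fold (1.48 to 1.53) in CD8 T cells as a whole, 0.747-fold (0.731 to 0.763) inside the effector gate and 0.730-fold (0.66 to 0.80) inside the naive gate. The remaining CD8 T cells, in neither gate, had 126 per 10000 in OX40 and 306 in PDOX.

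CD4 T cells had Ccl5 levels of 6.76 in Untreated, 5.96 in PDL1, 26.4 in OX40 and 110 in PDOX. The Untreated and PDL1 intervals overlapped, and PDOX over Untreated was 16.2-fold (13.3 to 19.9), where 6.97% of genes were 2-fold or more higher. The CD4 effector gate took 4.04%, 4.10%, 21.4% and 46.7% of CD4 T cells, and its Ccl5 level was 150, 98.1, 75.2 and 157, so that the libraries did not order as in all CD4 T cells. The first 2 of these values come from 4 and 8 cells. In the CD4 naive gate the levels were 0.219, 0.645, 1.80 and 6.35, and 15.0% of its cells had a Ccl5 UMI against 12.2% of B cells. NK cells had levels of 412, 409, 581 and 574, with a Ccl5 UMI in 63 of 64 cells. Monocytes (1.01), basophils (0.739) and B cells (0.904) had low levels with overlapping intervals. By library, the monocyte level was 0, 0.511, 3.87 and 1.55, and the OX40 value comes from 7 UMIs in 8 cells. Monocytes did not differ detectably from B cells (edgeR, log2 fold change 0.11 ± 0.66, adjusted p = 0.935).

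**Figure D2:**
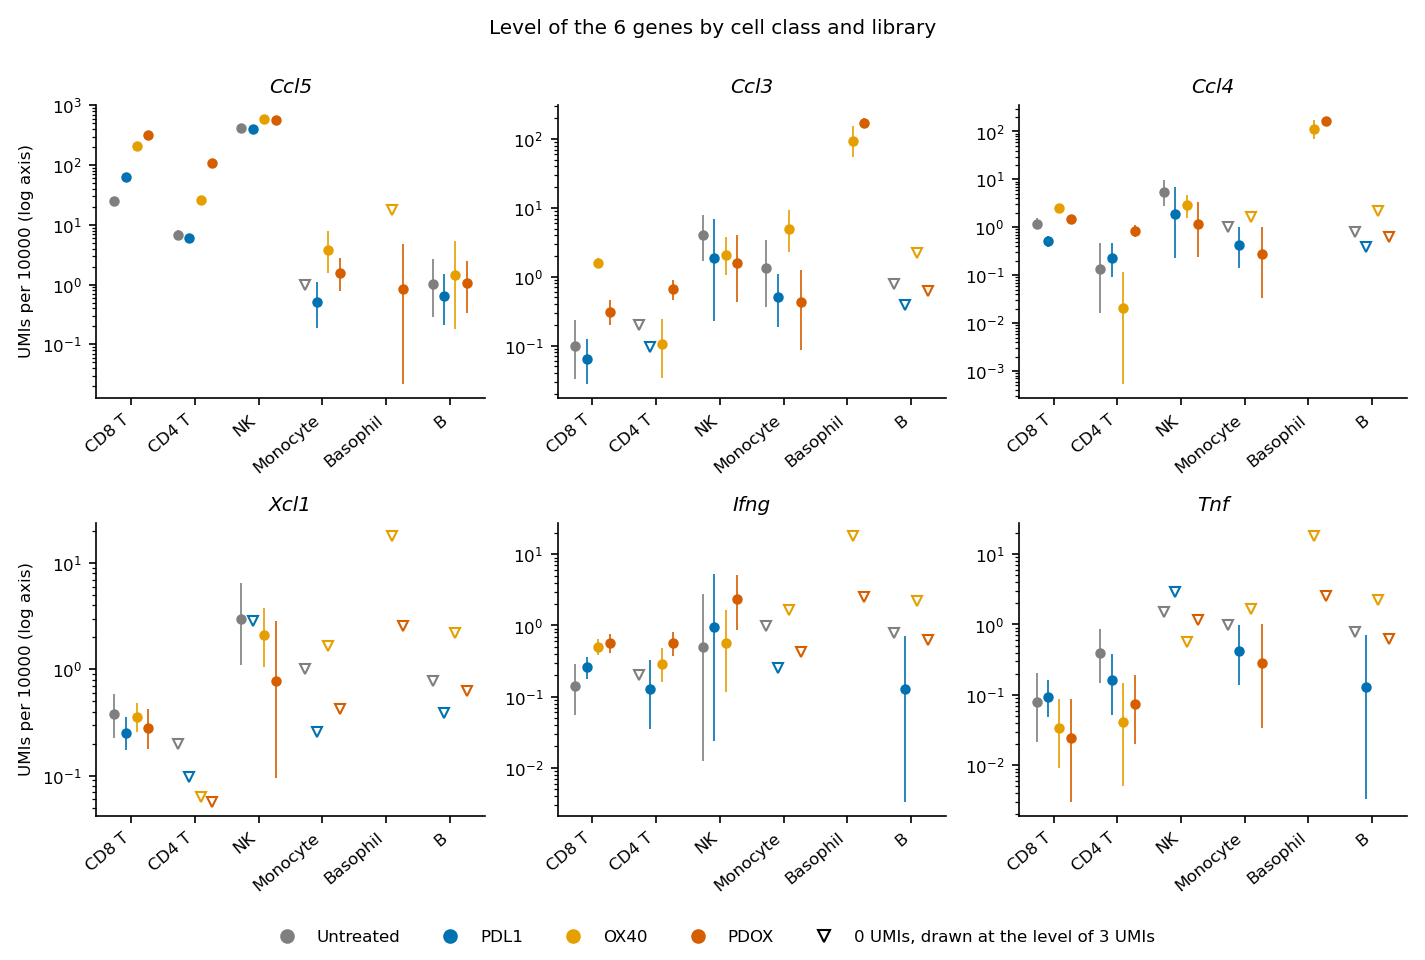
Level of each gene (UMIs per 10000 UMIs, log axis) by cell class, with 1 point for each library and exact Poisson intervals. Open triangles stand for 0 UMIs and are drawn at the level of 3 UMIs. Ccl5 was at 25.5 in Untreated and 320 in PDOX CD8 T cells, Ccl3 and Ccl4 were highest in basophils, and no CD4 T cell had an Xcl1 UMI.

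Class differences were tested on UMIs summed per library and class, with edgeR's quasi-likelihood test, the library as a block and Benjamini-Hochberg adjustment over all genes tested. Sums of at least 10 cells entered, so effector-gate CD8 T cells came from 3 libraries (PDL1, OX40 and PDOX) and effector-gate CD4 T cells from OX40 and PDOX. In effector-gate over naive-gate CD8 T cells, 513 of 4560 genes were called higher (11.2%) and 581 lower (12.7%). Of the 5 members tested, Ccl5, Ccl3, Ccl4 and Ifng were called higher and Xcl1 was not called. Tnf had too few UMIs for any of the tests. Ccl5 was higher by a log2 fold change of 4.56 ± 0.19 (SE, adjusted p = 2.7e-36) and higher in 3 of 3 libraries. In CD4 T cells, 7.02% of genes were called higher and 5.39% lower, and Ccl5 and Ifng were among those called higher, with Ccl3 and Ccl4 called against a count of 0. Ccl5 rose there by 5.29 ± 0.24 (adjusted p = 1.5e-32, 2 of 2 libraries). The CD8 change was smaller than the CD4 change by 0.73 ± 0.31 on the log2 scale, and this difference was not called (edgeR, adjusted p = 0.575, unadjusted p = 0.0195). In that comparison of changes, 0.11% of genes were called higher and 0.482% lower.

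Between lineages, effector-gate CD8 T cells had more Ccl5 than effector-gate CD4 T cells by a log2 fold change of 2.71 ± 0.23 (edgeR, adjusted p = 1.9e-16, 2 of 2 libraries). There, 1.23% of genes were called higher and 0.833% lower. Without the library block the fold change was 2.29 with an adjusted p of 0.093. NK cells and effector-gate CD8 T cells did not differ detectably, with a fold change of -0.10 ± 0.20 (adjusted p = 0.878, higher in 1 of 2 libraries). Whole CD8 T cells exceeded whole CD4 T cells by 2.52 ± 0.23 (edgeR, adjusted p = 2.5e-05, 4 of 4 libraries), where 3.07% of 6150 genes were called higher and 2.15% lower. Ordered by level over the 4 libraries, effector-gate CD8 T cells (556) and NK cells (531) came first, and their ranges over libraries overlapped. Effector-gate CD4 T cells (130), naive-gate CD8 T cells (20.7) and naive-gate CD4 T cells (2.12) followed, with ranges over libraries that did not overlap.

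**Figure D3:**
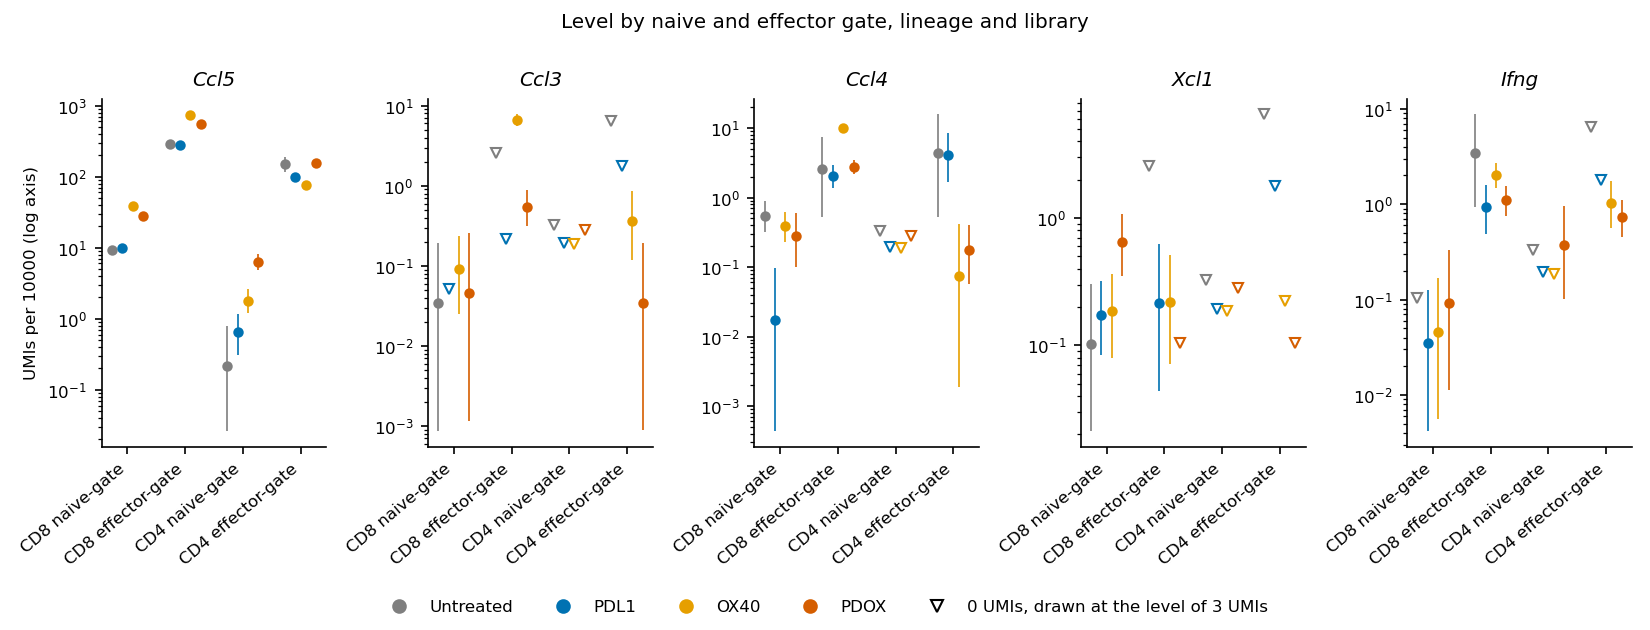
Level of 5 genes (UMIs per 10000 UMIs, log axis) in naive-gate and effector-gate CD8 and CD4 T cells, with 1 point for each library, exact Poisson intervals, and open triangles at the level of 3 UMIs for 0 UMIs. In effector-gate CD8 T cells, Ccl3 was at 6.64 in OX40 and 0.551 in PDOX, while Ccl5 was at 741 and 554.

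In RefSeq (GRCm38.p6, the patch release of mm10, the build of the files) Ccl5 lies at chr11:83525778-83530518, near Ccl3 at chr11:83647843-83649378 and Ccl4 at chr11:83648624-83664683. The annotated spans of Ccl3 and Ccl4 overlap, and whether the authors' counting used strand is not given in the sources used here. Xcl1 lies at chr1:164931644-164935522, Ifng at chr10:118441046-118445894 and Tnf at chr17:35199367-35202007. The 250 bases before the annotated start are shown for Ccl3 and Ifng, which rose together in effector-gate CD8 T cells, and for Xcl1, which was not called there. They come from the RefSeq promoter table, which held 4 of the 6 genes (not Ccl5 or Ccl4). Capitals mark matches, on either strand, to the AP-1 motif TGANTCA, the NF-kB motif (GGG, any 5 bases, CC), the T-box core TCACAC and the TATA box TATAAA.
Ccl3, chr11:83649379-83649628, minus strand: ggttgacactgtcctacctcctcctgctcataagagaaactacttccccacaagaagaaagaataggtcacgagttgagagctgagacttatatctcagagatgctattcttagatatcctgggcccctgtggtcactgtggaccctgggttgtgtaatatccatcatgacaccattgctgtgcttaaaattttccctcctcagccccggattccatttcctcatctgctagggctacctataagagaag
Ifng, chr10:118440796-118441045, plus strand: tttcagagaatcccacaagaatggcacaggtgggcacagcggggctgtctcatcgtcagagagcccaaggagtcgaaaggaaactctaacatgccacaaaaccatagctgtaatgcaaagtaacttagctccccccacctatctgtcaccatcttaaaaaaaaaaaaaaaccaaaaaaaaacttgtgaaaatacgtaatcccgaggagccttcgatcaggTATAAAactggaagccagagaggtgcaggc
Xcl1, chr1:164935523-164935772, minus strand: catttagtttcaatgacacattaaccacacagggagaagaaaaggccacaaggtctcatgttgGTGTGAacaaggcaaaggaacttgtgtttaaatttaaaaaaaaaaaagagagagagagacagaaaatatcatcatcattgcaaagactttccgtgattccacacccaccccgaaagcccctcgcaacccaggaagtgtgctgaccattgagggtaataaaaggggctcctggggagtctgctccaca
The Ifng window held a TATA box from base -30 to -25 before the start, and the Xcl1 window a T-box core, on the opposite strand, from base -187 to -182. The Ccl3 window held none of the 4. Of 32817 promoter windows of this length, 6.75% held the AP-1 motif, 45.8% the NF-kB motif, 12.3% the T-box core and 12.4% the TATA box.

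Ccl3 and Ccl4 are chemokines with neighboring genes, and the classes that held their transcripts differed between the libraries. CD8 T cells held 5 of 131, 8 of 36, 189 of 267 and 25 of 620 Ccl3 UMIs in Untreated, PDL1, OX40 and PDOX, and 60 of 117, 65 of 106, 295 of 438 and 122 of 781 Ccl4 UMIs. Basophils and cells without a class together held most Ccl3 UMIs in PDOX (206 and 263), while CD8 T cells alone held most in OX40. The study isolated T cells from blood by repeated depletion of other cells, so basophils, NK cells, monocytes, B cells and neutrophils are residual cells here, and their numbers are not those of blood. The 9 basophils were gated by at least 2 UMIs of the basophil proteases Mcpt8 and Prss34 and no Cd3 UMI. They held 222 Ccl3 and 211 Ccl4 UMIs, levels of 164 (143 to 187) and 156 (136 to 178). Ccl3 was found in all 9 and Ccl4 in 7, and 8 of the 9 came from the PDOX library and 1 from OX40. Basophil markers that the gate did not use were present, with Ms4a2 and Gata2 each found in 66.7% and Il4 in 55.6% of these cells. With any Mcpt8 or Prss34 UMI as the gate, 26 cells were taken, and the levels were 130 for Ccl3 and 152 for Ccl4. That wider gate also took cells with Cd3 UMIs, 1 of which held 72 Ccl5 UMIs. A stricter gate of 10 protease UMIs took 4 cells, all from PDOX. Their levels were lower, at 89.2 (64.0 to 121) for Ccl3 and 58.7 (38.7 to 85.4) for Ccl4. With a gate on Ms4a2, Fcer1a, Cpa3 and Gata2 in place of the proteases, which was added after the data were seen, 18 cells were taken (1 Untreated, 2 OX40 and 15 PDOX). All 18 had Ccl3 UMIs, at a level of 180, and 15 had Ccl4 UMIs, at 188.

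Cells with basophil markers also lay outside the basophil class. Of 385 Ccl3 and 369 Ccl4 UMIs in cells without a class, 262 and 313 lay in 11 cells with these basophil markers. In Untreated, cells without a class held 93 of 131 Ccl3 UMIs. Of these 93, 13 lay in 1 cell with basophil markers and 80 in 8 cells without them. In PDOX CD4 T cells, 1 cell with 149 Mcpt8 and Prss34 UMIs held 33 of 35 Ccl3 and 40 of 45 Ccl4 UMIs. Without cells that had any such UMI, the level in PDOX CD4 T cells was 0.0379 for Ccl3 and 0.0947 for Ccl4, against 0.653 and 0.839 with them. In the PDOX library, 1 T cell without a coreceptor UMI held 53 Ccl3 and 88 Ccl4 UMIs beside 9 protease UMIs.

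Within CD8 T cells, the levels of Ccl3 and Ccl4 did not follow the order of Ccl5. Ccl3 was at 0.0995 in Untreated, 0.0631 in PDL1, 1.60 in OX40 and 0.307 in PDOX, and Ccl4 was at 1.19, 0.512, 2.50 and 1.5. In Untreated, 1 cell held 37 of the 60 Ccl4 UMIs, and the level with thinned cells was 0.646. The share of cells with a Ccl4 UMI followed the Ccl5 order: 3.14% in Untreated, 4.80% in PDL1, 10.4% in OX40 and 16.9% in PDOX. For Ccl3 the shares were 0.943%, 0.929%, 7.45% and 4.67%. In effector-gate CD8 T cells, Ccl3 had 0 UMIs in 6 Untreated and in 40 PDL1 cells, which by the limit of 3 counts allows levels of up to 2.56 and 0.214. It had 151 UMIs in 39 of 101 OX40 cells (38.6%, level 6.64) and 16 UMIs in 13 of 131 PDOX cells (9.92%, level 0.551). PDOX over OX40 was 0.0829-fold (0.0462 to 0.139). Both libraries had a median depth near 2000 UMIs in these cells (2019 in OX40 and 2000 in PDOX), and after thinning to 750 UMIs the shares were 25.3% and 6.30%. The OX40 UMIs did not come from a single cell, since the highest cell held 20 and the cells below the highest 5 held 79. The largest number in a PDOX cell was 2.

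Ccl4 in effector-gate CD8 T cells was at 2.56, 2.06, 9.98 and 2.75 per 10000 in Untreated, PDL1, OX40 and PDOX. It was found in 2 of 6, 16 of 40, 42 of 101 and 41 of 131 cells, while 17 OX40 cells but 1 PDL1 and 1 PDOX cell had 5 or more UMIs. PDOX over OX40 was 0.276-fold (0.211 to 0.357). Of 1711 genes with at least 50 UMIs in these 2 libraries, 1.64% were 2-fold or more lower in PDOX, among them Ccl3 and Ccl4. Ccl3 and Ccl4 were often found in the same cells. Of 52 effector-gate CD8 T cells with Ccl3, 34 (65.4%) had Ccl4, against 29.6% of those without Ccl3. All 52 cells with Ccl3 and all 101 with Ccl4 also had Ccl5, which was found in 259 of all 278 effector-gate CD8 T cells.

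In the test, effector-gate CD8 T cells exceeded naive-gate CD8 T cells in Ccl3 by a log2 fold change of 6.05 ± 0.44 (edgeR, adjusted p = 6.0e-20, higher in 2 of 3 libraries). For Ccl4 the change was 4.64 ± 0.24 (adjusted p = 6.0e-28, 3 of 3 libraries). Both calls were kept in every alternative that tested them. In CD4 T cells, the naive gate had 0 Ccl3 and 0 Ccl4 UMIs in 326 cells, and the effector gate 6 and 15 in 209 cells. Of the 15 Ccl4 UMIs, 2 and 7 lay in the 4 Untreated and 8 PDL1 cells, too few cells for the test. With OX40 and PDOX, Ccl3 and Ccl4 passed the threshold with edgeR at adjusted p values of 0.036 and 0.022. These calls compare with a count of 0, rest on 6 UMIs each, and were each lost in 6 of 13 alternatives. Effector-gate CD8 T cells exceeded effector-gate CD4 T cells by 4.14 ± 0.47 for Ccl3 (edgeR, adjusted p = 1.6e-10) and by 5.22 ± 0.36 for Ccl4 (adjusted p = 1.5e-20), each in 2 of 2 libraries. In Untreated and PDL1, with too few CD4 cells for the test, Ccl4 went the other way. Its levels there were 4.35 and 4.16 in effector-gate CD4 and 2.56 and 2.06 in effector-gate CD8 T cells. The Ccl3 call was lost without the OX40 library (3.45, adjusted p = 0.33), without the library block (4.15, 0.11) and with DESeq2 (3.70, 0.46). Whole CD8 T cells exceeded whole CD4 T cells in Ccl4 by 2.20 ± 0.48 (edgeR, adjusted p = 0.015, 4 of 4 libraries). That call was lost with DESeq2 (2.66, adjusted p = 0.24), without the library block (2.08, 0.21) and without the Untreated library (2.12, 0.069). Without T cells that had an Mcpt8 or Prss34 UMI, a setting added after the data were seen, the change was 3.91 (adjusted p = 9.1e-05).

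NK cells had Ccl3 at 3.98, 1.90, 2.09 and 1.57 and Ccl4 at 5.48, 1.90, 2.85 and 1.17 in Untreated, PDL1, OX40 and PDOX, from between 2 and 15 UMIs a library. The intervals of the levels overlapped, while Ccl4 in PDOX over Untreated was 0.214-fold (0.0384 to 0.812). With 1 Cd3 UMI allowed in the NK gate, Ccl4 in Untreated was at 18.3, with 37 of 48 UMIs in 1 cell, and at 1.52 in PDOX. The Untreated cell with 37 UMIs was counted among CD8 T cells by the main gates. Against effector-gate CD8 T cells, where 2.08% of genes were called higher in NK cells and 3.73% lower (95 and 170 genes, but 118 and 117 with the size factors of DESeq2 in edgeR), Ccl4 was lower in NK cells by a log2 fold change of -1.68 ± 0.31 (edgeR, adjusted p = 4.4e-05, 2 of 2 libraries). That call was lost in 4 of 14 alternatives: with DESeq2 (-1.44, adjusted p = 0.199), without the library block (-0.87, 0.54), with thinned cells (-1.50, 0.053) and without the OX40 library (-1.49, 0.13). Ccl3 was not called (-1.05 ± 0.41, adjusted p = 0.129), and it was 1.81 without the OX40 library. Monocytes had Ccl3 at 1.33, 0.511, 4.98 and 0.423, and 10 of 80 cells had a Ccl3 UMI. These levels come from 4, 6, 9 and 3 UMIs in 9, 32, 8 and 31 cells. Ccl4 was found in 3 monocytes. B cells had 0 UMIs of both genes in 131 cells, which by the limit of 3 counts allows a level of up to 0.169 and a share of cells with a UMI of up to 2.29%, and does not limit the share that express the genes. Over B cells, 13.8% of genes were called higher in monocytes and 8.9% lower, Ccl3 (edgeR, adjusted p = 0.00035) and Ccl4 (adjusted p = 0.003) among them. Both calls compare with a count of 0 in B cells. The Ccl3 call was lost with DESeq2 (adjusted p = 0.078) and without the library block (0.35). The Ccl4 call was lost without the library block (adjusted p = 0.29), with thinned cells (0.24), without the 5% of cells with the most UMIs (0.22) and without the PDL1 library (0.16), in which 1 monocyte held all 5 Ccl4 UMIs.

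Xcl1, the chemokine for XCR1-bearing dendritic cells, was found in CD8 T cells (116 UMIs), T cells with neither or both coreceptors (48), NK cells (19) and cells without a class (8), and in no CD4 T cell, monocyte, basophil, B cell or neutrophil. CD8 T cells had 19, 32, 42 and 23 UMIs in Untreated, PDL1, OX40 and PDOX, levels of 0.378, 0.252, 0.356 and 0.283 with overlapping intervals. CD4 T cells had 0 UMIs in 860 cells, which by the limit of 3 counts allows a level of up to 0.0203 and a share of up to 0.349% of cells with a UMI, not of cells that express the gene. NK cells had 6, 0, 11 and 2 UMIs, and 1.75 per 10000 over the 4 libraries. With 1 Cd3 UMI allowed in the NK gate, they had 15, 0, 14 and 10 UMIs, and 2.94 per 10000. Whole CD8 T cells were called higher than CD4 T cells (edgeR, adjusted p = 0.00054, 4 of 4 libraries). This call compares with a count of 0, and Xcl1 passed the filter on low counts through CD8 T cells alone, so it adds nothing to the counts themselves.

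In CD8 T cells, Ccl5, Ccl3 and Ccl4 were called higher in the effector gate and Xcl1 was not called, and a difference between these genes was not tested. The effector gate held 8 of the 116 CD8 T cell UMIs, none in 131 PDOX cells, and the naive gate held 35. The log2 fold change was -1.01 ± 0.74 (edgeR, adjusted p = 0.36, higher in 2 of 3 libraries), and 0.45 without the PDOX library. In naive-gate CD8 T cells of PDOX, Xcl1 was at 0.644, against 0.184 in OX40 and 0.174 in PDL1. NK cells exceeded effector-gate CD8 T cells by 3.81 ± 0.83 (edgeR, adjusted p = 0.00083, 2 of 2 libraries). With DESeq2 the adjusted p was 0.57. Xcl1 passed the filter on low counts in that fit through NK cells alone, so the call adds nothing to the counts themselves. In PDOX it compares 2 UMIs in NK cells with 0. In PDL1, whose 5 NK cells were too few for the test, NK cells had 0 UMIs and effector-gate CD8 T cells 3.

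Ifng, the type 1 cytokine, had levels in CD8 T cells of 0.139 in Untreated, 0.260 in PDL1, 0.501 in OX40 and 0.566 in PDOX. These come from 7, 33, 59 and 46 UMIs. PDOX over Untreated was 4.06-fold (1.82 to 10.7), and the OX40 and PDOX intervals overlapped. CD4 T cells had 0, 4, 14 and 30 UMIs, levels of 0, 0.129, 0.290 and 0.560. In the effector gate, 24.1% of CD8 and 9.09% of CD4 T cells had an Ifng UMI, against 0.582% and 0.613% in the naive gate. Within effector-gate CD8 T cells, the level was 3.41, 0.925, 2.02 and 1.10, and it was found in 3 of 6, 12 of 40, 31 of 101 and 21 of 131 cells. The Untreated value comes from 4 UMIs in 6 cells. PDOX over OX40 was 0.545-fold (0.336 to 0.874), below 1 as for Ccl5, Ccl3 and Ccl4.

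Ifng was higher in the effector gate by a log2 fold change of 4.55 ± 0.50 in CD8 T cells (edgeR, adjusted p = 2.4e-12, 3 of 3 libraries). In CD4 T cells it was higher by 2.91 ± 0.71 (adjusted p = 0.0017, 2 of 2 libraries), and this was lost without the OX40 library (1.94, adjusted p = 0.22) and with a stricter coreceptor gate (1.56, 0.30). The CD8 and CD4 changes differed by 1.63 ± 1.11, not called (adjusted p = 0.886), and by -1.44 without the PDOX library. Between effector-gate CD8 and CD4 T cells the difference of 0.95 ± 0.39 was not called (edgeR, adjusted p = 0.324), nor was that between whole CD8 and CD4 T cells (0.59 ± 0.28, adjusted p = 0.298, higher in 4 of 4 libraries). NK cells had 11 UMIs in 7 of 64 cells and did not differ detectably from effector-gate CD8 T cells (-0.41 ± 0.60, adjusted p = 0.818). In effector-gate CD8 T cells, 37.6% of cells with Ccl4 had Ifng, against 16.4% of those without.

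**Figure D4:**
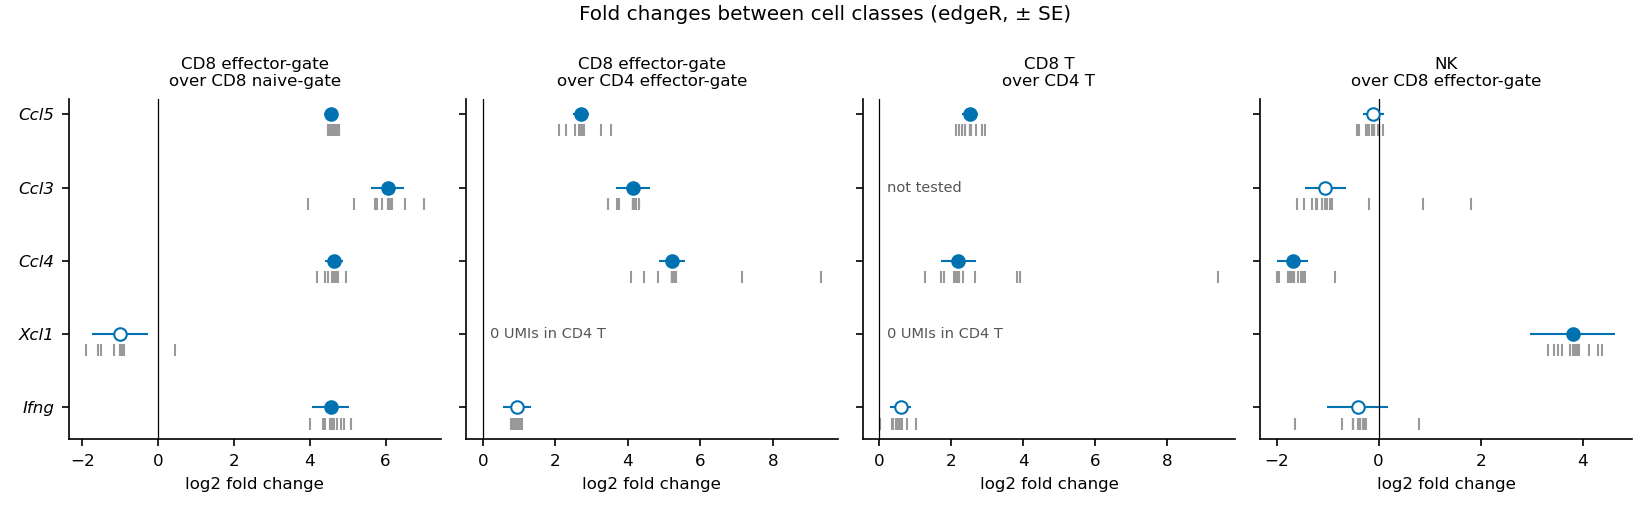
Log2 fold changes of 5 genes in 4 comparisons of cell classes (edgeR, ± SE), filled where called at an adjusted p under 0.05, with the values under the alternatives as gray ticks. In effector-gate over naive-gate CD8 T cells, Ccl5, Ccl3, Ccl4 and Ifng lie above 4 while Xcl1 lies at -1.01.

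The number of members found in each cell was also counted. Of 278 effector-gate CD8 T cells, 259 had Ccl5, 133 had none of the other 5 genes, and 65 (23.4%) had 2 or more of them. The last share was 22.5% in PDL1, 37.6% in OX40 and 13% in PDOX. Of 209 effector-gate CD4 T cells, 1 had 2 or more. Of 64 NK cells, 11 (17.2%) did.

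Tnf, the inflammatory cytokine, was low in every class. CD8 T cells had 22 UMIs in 18 cells (level 0.0585) and CD4 T cells 17 in 13 cells (0.115). CD8 T cells had 4, 12, 4 and 2 UMIs in Untreated, PDL1, OX40 and PDOX, with overlapping intervals. Effector-gate CD8 T cells had 2 UMIs in 278 cells. NK cells and basophils had 0, and monocytes 7 UMIs in 6 of 80 cells (0.296, 0.119 to 0.610). In NK cells, 0 of 64 allows a share of cells with a UMI of up to 4.69%, and does not limit the share that express the gene.

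Of all Tnf UMIs, 54.1% lay in 18 large cells with keratin transcripts. The 4 cells with 10 or more Tnf UMIs had 18, 17, 15 and 10, came from PDOX, Untreated, PDL1 and PDOX, and held between 9550 and 31661 UMIs. They had between 0 and 4 Cd3 UMIs and at most 2 of Ptprc, the pan-leukocyte gene. They had between 19 and 631 UMIs of the epithelial keratin genes Krt7, Krt13, Krt15 and Krt19, and between 722 and 5757 of Gsto1, and none had Ifng. Over all libraries, 18 cells had 10 or more UMIs of these keratins (2 Untreated, 8 PDL1, 1 OX40 and 7 PDOX). They held 80 of the 148 Tnf UMIs, and 14 of the 18 had Tnf. Of the 5281 other cells, 58 had Tnf (1.10%), with at most 4 UMIs each. The gates had put 8 of the 18 among T cells without a single coreceptor, 3 among CD8 T, 2 among CD4 T and 5 in no class, and none of them had over 2900 genes. The keratin genes and both limits of 10 UMIs were chosen after the values were seen.

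The receptors, regulators and targets of these molecules were taken from lists. Of 8 receptor genes, 5 were tested in effector-gate over naive-gate CD8 T cells, with a median log2 fold change of 1.19 against -0.05 over all genes. The TNF receptor gene Tnfrsf1b rose by 1.59 ± 0.40, while Ifngr2, a chain of the interferon gamma receptor, fell by 3.08 (SE 0.64). In CD4 T cells, Tnfrsf1b (1.67 ± 0.57) and Ifngr1 (1.30 ± 0.23) rose and Ifngr2 fell by 3.67 (SE 0.95). In monocytes over B cells, 4 of 5 receptors were called higher, against 13.8% of all genes, Tnfrsf1a most (5.45 ± 0.90). All these calls had adjusted p values under 0.05 with edgeR.

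Of 15 regulators, 12 were tested, and in CD8 T cells 5 were called higher and 4 lower in the effector gate, where 11.2% of all genes were called higher and 12.7% lower, with a median of 0.16 against -0.05 over all genes. Tbx21 (3.45 ± 0.65) and Eomes (1.73 ± 0.43), T-box factors that act at Ifng, rose, as did Hopx (2.21 ± 0.46) and the interleukin-18 receptor genes Il18r1 (1.31 ± 0.24) and Il18rap (2.0 ± 0.42). Nfkbia, an inhibitor of NF-kB, fell by 1.22 (SE 0.17). Zfp36 and Zfp36l1, which encode proteins that speed decay of cytokine mRNA, fell by 0.83 (SE 0.20) and by 1.34 (SE 0.21), and Klf13, a factor known for Ccl5 transcription, fell by 0.59 (SE 0.16). In CD4 T cells, 5 were called higher and 3 lower, against 7.02% and 5.39% of all genes. Hopx (3.51 ± 0.88), Tbx21 (3.15 ± 0.98), Il18rap (2.82 ± 0.77), Il18r1 (2.38 ± 0.34) and Runx3 (1.24 ± 0.31) rose. Zfp36 fell by 1.58 (SE 0.28), Nfkbia by 1.39 (SE 0.20) and Zfp36l1 by 0.90 (SE 0.25).

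Of 36 other secreted ligands, 9 were tested, and 2 were called higher and 1 lower in effector-gate CD8 T cells, against 11.2% and 12.7% of all genes, so the counts show nothing particular to the ligands. Fasl, the ligand of the death receptor Fas, rose by 3.96 ± 0.68 and Tgfb1 by 0.49 ± 0.18, and Ltb, a lymphotoxin subunit, fell by 0.91 (SE 0.13). Of 9 interferon gamma targets, 6 were tested. Their median was -0.42 in CD8 and -0.23 in CD4 T cells, against -0.05 and -0.01 over all genes. In each lineage none was called higher and 1 lower in the effector gate. Of all genes, 11.2% were called higher and 12.7% lower in CD8 T cells, and 7.02% and 5.39% in CD4 T cells. With 6 genes tested, these counts show nothing particular to the targets.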

How the data were processed

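Blood cells of 4 mice were sequenced as 1 droplet library each, with 3′ ends counted. Alignment to mm10 and counting used Cell Ranger, and the authors deposited raw UMI counts for 27998 genes and 5434 cells; the submitters' processing notes also name Seurat 2. Here, cells with at least 200 genes were kept, and totals excluded 13 mitochondrial, 86 ribosomal and 10 hemoglobin genes. Cells were classed by UMIs of 36 gate genes, which were left out of the tests.

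Levels have exact Poisson intervals, shares Clopper-Pearson intervals and ratios conditional binomial intervals, all at 95%. A class with 0 UMIs was given the limit that 3 UMIs allow. Sums per library and class with at least 10 cells were tested with edgeR 4.0.16 (quasi-likelihood, TMM, filter on low counts, library as block) and Benjamini-Hochberg adjustment, called at an adjusted p under 0.05. The classes of 1 library come from the same mouse, which is the pairing of the block. Within a library, cells of all classes share a mouse, so at most 4 mice stand behind any comparison. Naive-gate and effector-gate CD8 and CD4 T cells, NK cells, monocytes and B cells entered 1 fit. Its p-values use a spread estimated over the sums of all these classes. They do not measure the spread over mice of the compared classes alone. Whole CD8 over whole CD4 T cells had a fit of its own. DESeq2 1.42.0, R 4.3.3, Python 3.11.15, numpy 2.4.6, pandas 2.3.3, scipy 1.17.1 and matplotlib 3.10.9 were also used. Counts were also simulated with 200 genes changed by a log2 fold of 1. Of these, edgeR recovered 22.5% in the CD8 effector-gate over naive-gate comparison, 6.0% in the CD4 one and 6.5% between effector gates. It recovered 0.5% in the difference of changes and 1.5% in NK over CD8 T cells. In monocytes over B cells it recovered 2.0%, and in CD8 over CD4 T cells 51.5%. The 200 include genes that the filter removed, with 165 tested in the first comparison. All simulated sums had 1 pooled profile, a fixed spread (dispersion 0.05) and no library differences, unlike the real sums. The shares are thus not the power of the real tests.

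The 6 genes, the lists, the gates and the tests were chosen with earlier results of these data known. The named genes are the 6 members, the listed pathway genes past the test, and the 5 genes most like each member with 100 or more UMIs. Alternatives were another scaling, DESeq2, no filter, all genes kept, no block, fits of the compared classes alone, other gates, cells thinned to 750 UMIs, upper limits on cells and each library left out. No doublet caller was run. Some listed genes are not reported here.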

Additional observations from a re-analysis of the deposited data

Results flagged for a closer look

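Among the 135 droplets with fewer than 200 genes, which no comparison used, the 24 of the OX40 library held 11 Ccl5 UMIs, against 3 in the 78 of the Untreated library, 0 in the 5 of PDL1 and 3 in the 28 of PDOX. These droplets held 2848, 6563, 990 and 2384 UMIs in OX40, Untreated, PDL1 and PDOX without the excluded genes, and the Ccl5 counts were not scaled to these totals. The result is listed because 11 UMIs exceed the 3 that a count of 0 allows, and no difference between libraries was tested. The only other member found there was Ccl4, with 1 UMI in PDOX.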

How the results depend on the processing

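Of 18 member calls, 7 held in all alternatives that tested them: Ccl5, Ccl3, Ccl4 and Ifng in effector-gate over naive-gate CD8 T cells, Ccl5 in the CD4 T cell pair, Ccl4 between effector gates and Xcl1 in CD8 over CD4 T cells, the last against a count of 0. Counts of genes called moved as follows, and the cause was not tested. Without the replicate block (the library term), 30 genes were called between effector gates (94 with it), 5 in the difference of changes (27) and 105 in CD8 over CD4 T cells (321), and Ccl5 was no longer called between effector gates (2.29) or in CD8 over CD4 T cells (2.13). With DESeq2, 24, 6 and 198 were called there, and 152 in NK over CD8 T cells (265). With the compared classes alone, the counts were 26 between effector gates, 13 in the difference, 174 in NK cells and 560 in monocytes over B cells (1034). With 2 coreceptor UMIs, they were 288 in the CD4 T cell pair (566), 61, 15 and, in CD8 over CD4 T cells, 200. With cells thinned, they were 377 in the CD8 T cell pair (1094), 273, 35, 10, 88 and 372. With no filter, and without the 5% of cells with the most UMIs, 532 were called in CD8 over CD4 T cells. Leaving out a library gave 778 to 999 in the CD8 T cell pair, 327 to 508 in the CD4 pair (327 without OX40), 50 to 86 between effector gates (60 without OX40 and 50 without PDOX), 10 to 28 in the difference (10 without PDL1 and 13 without PDOX), 174 to 259 in NK cells (174 without OX40 and 177 without PDOX), 403 to 1084 in monocytes (403 without PDL1) and 133 to 287 in CD8 over CD4 T cells (133 without OX40).

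Fold changes that were not called turned sign for Xcl1 in the CD8 T cell pair without PDOX (0.45, with -1.91 without OX40), for Ifng (-1.44 without PDOX, with 2.07 without OX40) and Ccl5 (0.75, stricter coreceptor gate) in the difference of changes, for Ifng (0.79) and Ccl3 (1.81) in NK cells without OX40 (-1.64 and -1.60 without PDOX), for Ccl5 (0.0835) and Ccl3 (0.86) there with DESeq2 and Ccl5 (0.0155) with its size factors, and for Ccl5 in monocytes with DESeq2 (-0.10) and without PDOX (-0.26, with 0.32 without Untreated). The Ccl5 ratio over Untreated in CD8 T cells was 1.94 in PDL1, 7.79 in OX40 and 13.3 in PDOX with thinned cells, 2.26 in PDL1 and 7.22 in OX40 without the deepest cells, and 14.8 in PDOX with all genes in the denominator. Of levels by class and library, 1385 kept within counting error and 247 moved. Tnf, Xcl1 and Ifng rest on 148, 191 and 291 UMIs, and low expression and limited depth were not told apart.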

Other observations

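Neutrophils, gated with no Cd3 UMI, had Ccl3 at 20.7 per 10000 (12.5 to 32.4) in the Untreated library, where 5 of 11 cells held 19 UMIs. In PDL1 and PDOX the level was 1.26 (6 cells) and 2.65 (24 cells), and the OX40 library had 1 neutrophil with 0 UMIs. Over the 4 libraries, 8 of 42 neutrophils had Ccl3 and 7 had Ccl4, with Ccl4 at 1.96. With 1 Cd3 UMI allowed, a gate added after the data were seen, 122 monocytes were taken, and their Ccl3 level was 1.51. By library it was 4.03, 0.856, 2.42 and 0.491 in Untreated, PDL1, OX40 and PDOX. The highest library was thus Untreated, not OX40 as with the main gate. Untreated had 33 Ccl3 UMIs in 20 such cells, against 4 in 9 with the main gate, and the added cells had been without a class.

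Over 23 sums per class and library, which share libraries and depth, the genes most like Ccl5 by Pearson's r of log2(UMIs per 10000 + 1) were Nkg7 (0.974), Il2rb (0.954), Cst7 (0.95), Id2 (0.940) and F2r (0.922). For Ccl4 they were Ccl3 (0.759), Gzmb (0.745), Ctsd (0.742), Klrc1 (0.715) and Myo1f (0.702). For Ifng they were Osbpl3 (0.913), Rpa2 (0.865), Id2 (0.850), Serpinb6b (0.849) and Ccl5 (0.848), and for Ccl3 the highest was Fgl2 (0.797). These are descriptions over 4986 genes, and Xcl1 and Tnf had too few UMIs.

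In NK cells over effector-gate CD8 T cells, the interferon gamma receptor gene Ifngr1 (1.28 ± 0.25), the interleukin-18 receptor gene Il18rap (2.09 ± 0.44) and the chemokine gene Ccl9 (3.71 ± 0.78) were called higher with edgeR. Ltb fell by 3.55 (SE 0.36). In monocytes over B cells, the chemokine genes Ccl6 (10.75 ± 0.71) and Ccl9 (10.13 ± 0.90) and the cytokine gene Il1b (8.22 ± 1.76) were called higher.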
